A study of Mus musculus with 10 samples.

Results

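A set of 38 genes of glycolysis and of the hypoxia response were followed through 7 RNA-seq libraries of mouse embryonic stem cells. They were chosen by exact symbol from a table of 54456 genes, and the list comprised 16 enzymes of glycolysis, 3 transporters, 3 regulatory kinases, 4 HIF subunits and oxygen sensors, and 12 other HIF targets. The table held 37 of the 38 symbols. Ero1l was not among them, although the table lists Ero1a, for which RefSeq gives Ero1l as a synonym. A mean of at least 10 normalized counts over the libraries was required for testing, and 36 members were among the 15240 genes that met it. Car9, a carbonic anhydrase gene, did not.

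The cells were C57BL/6J stem cells, grown on gelatin with 15% serum, LIF, 3 µM of the GSK3 inhibitor CHIR99021 and 1 µM of the MEK inhibitor PD0325901. The series concerns X-linked dystonia parkinsonism, which goes with an SVA retrotransposon in the human TAF1 gene. The 3 converted lines, with 2 libraries each, were set beside 1 library of the wild-type line MK6. All 3 converted lines share the label entries loxP[Taf1_i24], pSpCas9[null] and pSpCas9GFP[null]. They also share LPSwapinRed_pUC19[Taf1_3_4], pCAGiCre[null] and an hTAF1 humanization of Taf1 called mousified and converted. Within the humanization entry conv-dSVA_F&D bears both SVA deletion marks (SVAdel and dSVA2), conv-dSVA_F bears SVAdel alone and conv-dSVA_D bears dSVA2 alone. The wild type carries none of these alleles, so it differs from the converted lines by more than the SVA deletions. The labels do not say whether the 2 libraries of a line were separate clones or cultures, and p-values therefore measure the spread between these libraries, which may be technical in part.

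Glycolysis splits glucose to pyruvate in the cytosol, and lactate dehydrogenase then turns pyruvate to lactate. HIF, a dimer of an oxygen-regulated alpha subunit with ARNT, raises transcription of most glycolytic enzyme genes when oxygen is low, because the EGLN prolyl hydroxylases that mark the alpha subunit for destruction need oxygen. Mouse stem cells in culture make much of their ATP by glycolysis also in the presence of oxygen. The culture notes give 5% CO2 and no oxygen level.

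Values are normalized counts, which are read counts divided by 1 size factor for each library. Libraries held 16588467 to 26562418 reads assigned to genes, and 1 read equals 0.816 to 1.39 normalized counts. Taf1, the edited gene, stood at 1116 and 1088 normalized counts in the conv-dSVA_F&D libraries, 501 and 589 in those of conv-dSVA_F, 362 and 418 in those of conv-dSVA_D, and 2898 in the wild type. Of the 15 pluripotency genes checked, all 15 passed the low-value filter, with summed levels of 105269 to 119763 in conv-dSVA_F&D, 100721 to 108643 in conv-dSVA_F, 128406 to 133418 in conv-dSVA_D and 107960 in the wild type. Chromosomes 6 and 8 were shifted as a whole in conv-dSVA_F. Against the wild type, chromosome 6 genes had a median of 0.004 and -0.01 (log2) in the libraries of conv-dSVA_F&D, 0.41 and 0.36 in those of conv-dSVA_F and 0.15 and 0.14 in those of conv-dSVA_D. For chromosome 8 it was 0.005 and -0.01 for conv-dSVA_F&D, 0.63 and 0.44 for conv-dSVA_F and 0.07 and 0.24 for conv-dSVA_D. For chromosome 18 the conv-dSVA_F&D libraries had -0.03 and 0.51, the higher value being that of replicate 2. Chromosome 6 holds 6 of the members, chromosome 8 holds 2 and chromosome 18 holds 0.

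Levels of different genes were compared per kilobase of annotated exon, as the mean over the 7 libraries. The length joined all annotated exons of a gene (4133 bases for Gapdh, 3310 for Ldha) and can exceed that of any 1 transcript. Ranks and sizes of ratios between genes depend on this length, while the order of libraries within a ratio does not. The aldolase gene Aldoa (17602 normalized counts per kb), the pyruvate kinase gene Pkm (16325) and the lactate dehydrogenase gene Ldha (11814) had the highest levels among the members. Gapdh, the glyceraldehyde phosphate dehydrogenase gene, followed at 8232 and the triosephosphate isomerase gene Tpi1 at 6848. The hexokinase, aldolase and enolase genes each had 1 form that was higher in every library. Hk2 exceeded Hk1, both hexokinase genes that trap glucose in the cell, by 7.05 and 7.90 times per kb in conv-dSVA_F&D, 20.3 and 23.2 times in conv-dSVA_F, 22.4 and 13.3 times in conv-dSVA_D, and 9.82 times in the wild type. Aldoa exceeded Aldoc 63.2 to 211 times, and Eno1 exceeded Eno2, the neuronal enolase gene, 169 to 1670 times. The glucose transporter gene Slc2a3 exceeded Slc2a1 by 2.24 and 2.16 times in conv-dSVA_F&D, 5.18 and 4.03 times in conv-dSVA_F, 3.83 and 4.49 times in conv-dSVA_D, and 3.02 times in the wild type. Both the Hk2 to Hk1 and the Slc2a3 to Slc2a1 ratio were thus lowest in the 2 conv-dSVA_F&D libraries. Hk2 and Slc2a3 lie on chromosome 6, which stood higher in conv-dSVA_F as a whole and in conv-dSVA_D at its end, where Slc2a3 lies. Hk1 and Slc2a1 lie on chromosomes 10 and 4, and the part of the chromosome 6 shift in these ratios was not tested. Reads of Aldoa, Gapdh, Ldha, Pgk1, Pgam1 and Eno1 may be shared with near-identical copies. Copies of these genes named by the gene's symbol with a suffix had means of at most 69.0 normalized counts (Eno1b). Copies under other names were not searched for, and how multiply mapped reads were counted was not stated.

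**Figure D1:**
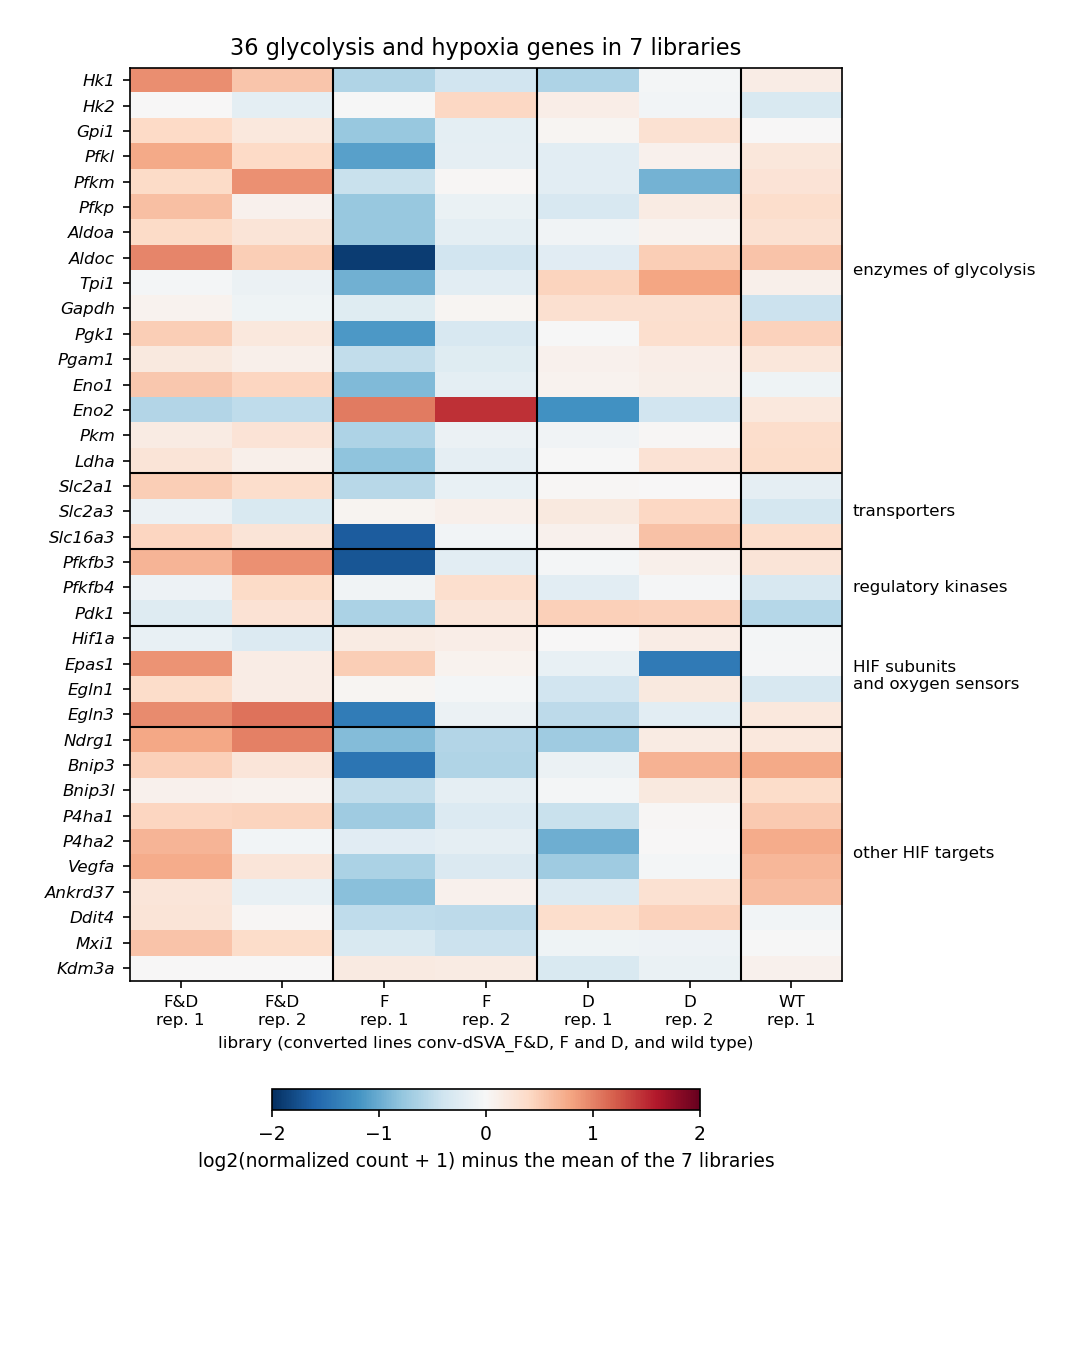
Colours show log2(normalized count + 1) of each of the 36 tested members (rows, by role) in each of the 7 libraries (columns) minus that member's mean over the 7. Blue cells dominate in conv-dSVA_F replicate 1, which lay below the mean for 30 of the 36 members, while conv-dSVA_F&D replicate 1 lay below it for 6.

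When conv-dSVA_F&D was set against conv-dSVA_F, a line without the dSVA2 mark, 15 of the 36 tested members rose and none fell (limma, Benjamini-Hochberg over all 15240 genes; 26 members at unadjusted p under 0.05, and 14 higher and 0 lower with edgeR, 19 higher and 0 lower with DESeq2). Over all genes tested, limma called 3.92% in this comparison, 1.71% as higher and 2.21% as lower, while edgeR called 3.63% and DESeq2 9.16%. An unadjusted p under 0.05 (limma) was found for 3159 of the 15240 genes. By role, 7 of 16 enzymes, 1 of 3 transporters, 1 of 3 regulatory kinases, 1 of 4 HIF subunits and oxygen sensors and 5 of 10 tested other HIF targets rose. The median log2 difference was 0.72 over the 36 members and -0.01 over all genes tested. It was 0.79 over the enzymes and 0.59 over the 20 other members tested. All 15 members that rose lie outside chromosomes 6 and 8, which stood higher in conv-dSVA_F. With chromosome medians set equal, Tpi1, Gapdh and Eno2 on chromosome 6 differed by 0.91, 0.49 and -1.40 (0.51, 0.09 and -1.80 as deposited). Ankrd37 on chromosome 8 then differed by 0.95 (0.42 as deposited). No member on either chromosome passed in that fit. Because this list was drawn up with an earlier result for glycolysis genes in this comparison known, its counts are a description.

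Both the number of calls and the differences changed with the libraries in the fit. Member counts at unadjusted p under 0.05 in these fits lack the same count over all genes. With all 7 libraries that count was 3159 of 15240. Over the 7 fits that each left out 1 library, Pfkfb3 differed by 1.01 to 2.51, Aldoc by 1.12 to 2.63 and Egln3 by 1.14 to 2.43. The ranges were narrower for Hk1 (1.06 to 1.43) and Ndrg1 (1.49 to 1.76). Without conv-dSVA_F replicate 1 the limma count was 0 (20 members had an unadjusted p under 0.05; median 0.49; edgeR and DESeq2 were not run without it), and no gene of the whole table passed either. Without conv-dSVA_F&D replicate 1 the count was 5 (median 0.62, 5.68% of all genes) and without its replicate 2 it was 7 (median 0.80, 2.76%). Without conv-dSVA_D replicate 1 or 2 it was 3 each time, with the median still 0.72, 26 members at unadjusted p under 0.05, and 1.21% and 1.19% of all genes called. With chromosome medians set equal it was 5 (Hk1, Eno1, Slc2a1, Ndrg1 and Ddit4), with a median of 0.76, 29 members at unadjusted p under 0.05 and 1.12% of all genes called.

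Among the enzymes, Hk1 (ENSMUSG00000037012.18, chromosome 10 from 62268855 to 62379908 on the minus strand, GRCm38) stood at 1969 and 1518 normalized counts in the conv-dSVA_F&D libraries, 676 and 788 in those of conv-dSVA_F, 670.2 and 1003 in those of conv-dSVA_D, and 1135 in the wild type. Both conv-dSVA_F&D libraries lay above all 5 others, and the log2 difference from conv-dSVA_F was 1.24 ± 0.21, adjusted p = 0.0183 (differences that follow are log2, conv-dSVA_F&D minus conv-dSVA_F, ± SE, with limma's adjusted p). Hk2, the more abundant hexokinase gene, stood at 9713 and 8390.2 normalized counts in the conv-dSVA_F&D libraries, 9596 and 12769 in those of conv-dSVA_F, 10513 and 9309 in those of conv-dSVA_D, and 7801 in the wild type. Its groups overlapped and its difference was -0.29 ± 0.15, adjusted p = 0.302, turning to 0.10 with chromosome medians set equal. Gpi1, which encodes glucose phosphate isomerase, had 22638 and 20065 normalized counts in the conv-dSVA_F&D libraries, 10180 and 14994 in those of conv-dSVA_F, 17774 and 21346 in those of conv-dSVA_D, and 17271 in the wild type, and it rose (0.79 ± 0.18, adjusted p = 0.0431).

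Phosphofructokinase commits sugar to glycolysis. Its gene Pfkl (ENSMUSG00000020277.10, chromosome 10 from 77986947 to 78010083 on the minus strand) stood at 11064 and 8576 normalized counts in the conv-dSVA_F&D libraries, 3073 and 5731 in those of conv-dSVA_F, 5614 and 6905 in those of conv-dSVA_D, and 7638 in the wild type and rose (1.21 ± 0.25, adjusted p = 0.0313). Conv-dSVA_F replicate 1 was the lowest of the 7 libraries, and the wild type lay between both groups. Pfkp, another phosphofructokinase gene, had 12845 and 8973 normalized counts in the conv-dSVA_F&D libraries, 4985 and 7739 in those of conv-dSVA_F, 6809 and 9463 in those of conv-dSVA_D, and 10814 in the wild type and did not pass (0.79 ± 0.24, adjusted p = 0.0968). Pfkm, named for the muscle form, had 935 and 1358 normalized counts in the conv-dSVA_F&D libraries, 528 and 729 in those of conv-dSVA_F, 619 and 373 in those of conv-dSVA_D, and 862 in the wild type and did not pass either (0.86 ± 0.27, adjusted p = 0.11).

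Further along the pathway, Aldoa stood at 64967 and 59756 normalized counts in the conv-dSVA_F&D libraries, 29403 and 43279 in those of conv-dSVA_F, 47134 and 52457 in those of conv-dSVA_D, and 61675 in the wild type and rose (0.80 ± 0.18, adjusted p = 0.0408). Aldoc, its minor relative, stood at 1152 and 822 normalized counts in the conv-dSVA_F&D libraries, 157 and 447 in those of conv-dSVA_F, 498 and 820.5 in those of conv-dSVA_D, and 872 in the wild type, with the largest difference among the enzymes (1.87 ± 0.42, adjusted p = 0.0415). The 2 conv-dSVA_F libraries were the lowest of the 7 for Aldoc and differed from each other by more than 2-fold. The phosphoglycerate kinase gene Pgk1, which lies on chromosome X like Taf1 (ENSMUSG00000062070.12, chromosome X from 106187100 to 106203699 on the plus strand), had 7740.5 and 6383 normalized counts in the conv-dSVA_F&D libraries, 2477 and 4429 in those of conv-dSVA_F, 5462 and 6937 in those of conv-dSVA_D, and 7588 in the wild type and rose (1.09 ± 0.24, adjusted p = 0.0384). For Pgk1 both conv-dSVA_F libraries were below the 5 others. Eno1 (ENSMUSG00000063524.13, chromosome 4 from 150236721 to 150248879 on the plus strand), which encodes the main enolase, stood at 30316 and 28086 normalized counts in the conv-dSVA_F&D libraries, 11355 and 18291 in those of conv-dSVA_F, 21999 and 22646 in those of conv-dSVA_D, and 19744 in the wild type and rose (1.02 ± 0.19, adjusted p = 0.0237). Its conv-dSVA_F&D libraries were the highest of the 7 and its conv-dSVA_F libraries the lowest.

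The 9 enzymes that did not pass had differences of -1.80 (Eno2) to 0.86 (Pfkm). Ldha stood at 45141 and 40639 normalized counts in the conv-dSVA_F&D libraries, 21742 and 33351 in those of conv-dSVA_F, 37845 and 46187 in those of conv-dSVA_D, and 48824 in the wild type (0.67 ± 0.19, adjusted p = 0.0898). For Pkm the difference was 0.59 ± 0.17, adjusted p = 0.0945, and for the phosphoglycerate mutase gene Pgam1 it was 0.51 ± 0.12, adjusted p = 0.0537. In both genes, as in Ldha, both conv-dSVA_F libraries were below the 5 others. Gapdh and Tpi1, on chromosome 6, differed by 0.09 ± 0.13, adjusted p = 0.749 and by 0.51 ± 0.21, adjusted p = 0.212. Eno2, also on chromosome 6, was a low gene with 18.3 and 19.5 normalized counts in the conv-dSVA_F&D libraries, 58.7 and 79.2 in those of conv-dSVA_F, 11.5 and 21.2 in those of conv-dSVA_D, and 32.7 in the wild type. As deposited, it was the 1 enzyme besides Hk2 with a negative difference, and both conv-dSVA_F libraries were above the others.

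**Figure D2:**
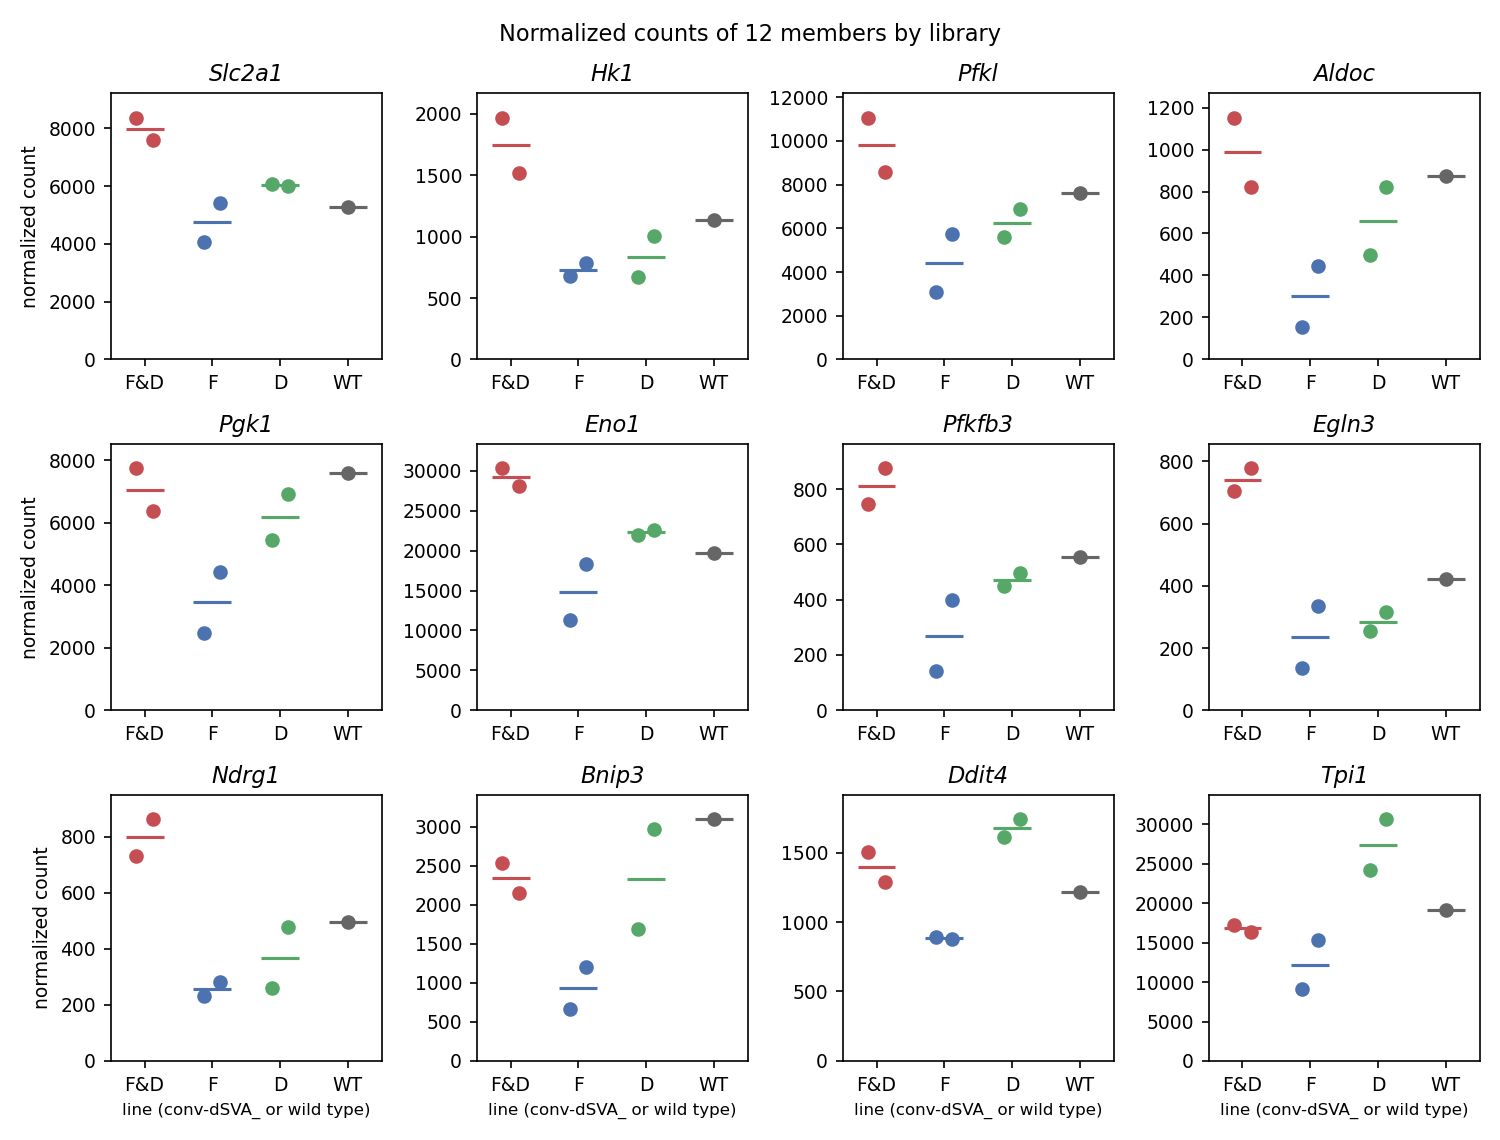
Each point is the normalized count of 1 library for 12 members that passed in at least 1 comparison, with lines at the group mean (2 libraries for conv-dSVA_F&D, F and D, 1 for the wild type, WT) and a y axis that starts at 0. Eno1, Egln3 and Ndrg1 show the conv-dSVA_F&D libraries above all others, and Tpi1 shows the conv-dSVA_D libraries highest.

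Of the transporters and regulatory kinases, 1 each rose. Slc2a1 (ENSMUSG00000028645.11, chromosome 4 from 119108711 to 119137983 on the plus strand), the gene of the widespread glucose transporter GLUT1, stood at 8367 and 7602 normalized counts in the conv-dSVA_F&D libraries, 4074 and 5407 in those of conv-dSVA_F, 6077 and 6013 in those of conv-dSVA_D, and 5276 in the wild type. The conv-dSVA_F&D libraries were the highest and Slc2a1 rose over conv-dSVA_F (0.76 ± 0.14, adjusted p = 0.0231). Slc2a3, for GLUT3, had 38683 and 33930.1 normalized counts in the conv-dSVA_F&D libraries, 43647 and 45051 in those of conv-dSVA_F, 48085 and 55784 in those of conv-dSVA_D, and 32915 in the wild type and did not pass (-0.29 ± 0.13, adjusted p = 0.247, turning to 0.10 with chromosome medians set equal). Slc16a3, the gene of the lactate exporter MCT4, had 3209 and 2822 normalized counts in the conv-dSVA_F&D libraries, 749 and 2281 in those of conv-dSVA_F, 2528 and 3557 in those of conv-dSVA_D, and 3022 in the wild type. Its conv-dSVA_F libraries differed by about 3-fold from each other, and the difference did not pass (1.20 ± 0.40, adjusted p = 0.127). Pfkfb3, which encodes a kinase that makes the phosphofructokinase activator fructose 2,6-bisphosphate, stood at 744 and 875 normalized counts in the conv-dSVA_F&D libraries, 141 and 399 in those of conv-dSVA_F, 450.3 and 496 in those of conv-dSVA_D, and 554 in the wild type and rose (1.76 ± 0.38, adjusted p = 0.0365). Its relative Pfkfb4 was low in every library, at 53.5 to 87.8 normalized counts (0.00 ± 0.39, adjusted p = 0.998). Pdk1 encodes a kinase that shuts pyruvate dehydrogenase and so limits the oxidation of pyruvate in the mitochondrion. It had 1873 and 2732 normalized counts in the conv-dSVA_F&D libraries, 1444 and 2651 in those of conv-dSVA_F, 3110.1 and 3086 in those of conv-dSVA_D, and 1499.7 in the wild type (0.21 ± 0.26, adjusted p = 0.695).

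Among the genes of the oxygen-sensing machinery, Hif1a, the gene of the ubiquitous HIF alpha subunit, was the steadiest member, with 2505 and 2303 normalized counts in the conv-dSVA_F&D libraries, 3109 and 3046 in those of conv-dSVA_F, 2798 and 3096 in those of conv-dSVA_D, and 2699 in the wild type. The highest library exceeded the lowest by 1.35 times, and both conv-dSVA_F&D libraries were below the 5 others without passing (-0.36 ± 0.11, adjusted p = 0.116). Epas1, for the HIF-2 alpha subunit, had 1085 and 645 normalized counts in the conv-dSVA_F&D libraries, 819 and 611 in those of conv-dSVA_F, 524 and 218 in those of conv-dSVA_D, and 577 in the wild type (0.24 ± 0.38, adjusted p = 0.763). HIF-1 alpha is regulated mainly at the protein, which was not measured. Egln3 (ENSMUSG00000035105.5, chromosome 12 from 54178981 to 54203860 on the minus strand), an oxygen-sensing prolyl hydroxylase gene that is itself a HIF target, had 706 and 777 normalized counts in the conv-dSVA_F&D libraries, 137 and 335 in those of conv-dSVA_F, 254 and 314 in those of conv-dSVA_D, and 422 in the wild type. It rose by 1.78 ± 0.35, adjusted p = 0.0264, and the conv-dSVA_F&D libraries were above all others. Egln1, the main hydroxylase gene, on chromosome 8, had 932 and 799.6 normalized counts in the conv-dSVA_F&D libraries, 739 and 702 in those of conv-dSVA_F, 553 and 825 in those of conv-dSVA_D, and 575 in the wild type (0.26 ± 0.20, adjusted p = 0.497, and 0.79 with chromosome medians set equal).

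Of the other HIF targets, 5 rose. Ndrg1 (ENSMUSG00000005125.13, chromosome 15 from 66929318 to 66969640 on the minus strand), a gene of the stress response and of cell differentiation, stood at 732 and 862 normalized counts in the conv-dSVA_F&D libraries, 233 and 282 in those of conv-dSVA_F, 261 and 477 in those of conv-dSVA_D, and 496 in the wild type (1.63 ± 0.27, adjusted p = 0.0183). The mitophagy receptor gene Bnip3 (ENSMUSG00000078566.8, chromosome 7 from 138890836 to 138909519 on the minus strand) had 2531 and 2156 normalized counts in the conv-dSVA_F&D libraries, 666 and 1207 in those of conv-dSVA_F, 1685 and 2972 in those of conv-dSVA_D, and 3095 in the wild type (1.38 ± 0.29, adjusted p = 0.0355). Here the conv-dSVA_F libraries were the lowest, and the wild type rather than conv-dSVA_F&D the highest. P4ha1, for the catalytic subunit of collagen prolyl hydroxylase, had 1331 and 1341 normalized counts in the conv-dSVA_F&D libraries, 597 and 815 in those of conv-dSVA_F, 724 and 995 in those of conv-dSVA_D, and 1412 in the wild type (0.94 ± 0.19, adjusted p = 0.0311). Ddit4, whose product restrains mTORC1, had 1507 and 1286 normalized counts in the conv-dSVA_F&D libraries, 889 and 876 in those of conv-dSVA_F, 1608 and 1739.7 in those of conv-dSVA_D, and 1213 in the wild type (0.66 ± 0.13, adjusted p = 0.0301). Mxi1, for a MYC antagonist, had 744 and 651 normalized counts in the conv-dSVA_F&D libraries, 405 and 371 in those of conv-dSVA_F, 473 and 469 in those of conv-dSVA_D, and 499 in the wild type (0.84 ± 0.16, adjusted p = 0.0264), with both conv-dSVA_F&D libraries highest.

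Vegfa, for the main blood vessel growth factor, had 682 and 482 normalized counts in the conv-dSVA_F&D libraries, 261 and 333 in those of conv-dSVA_F, 247 and 397 in those of conv-dSVA_D, and 643 in the wild type and did not pass (0.96 ± 0.27, adjusted p = 0.0786). Bnip3l, a second mitophagy receptor gene, differed by 0.41 ± 0.15, adjusted p = 0.147, the collagen hydroxylase gene P4ha2 by 0.52 ± 0.36, adjusted p = 0.452 and Ankrd37 by 0.42 ± 0.32, adjusted p = 0.5. The histone demethylase gene Kdm3a, on chromosome 6, differed by -0.16 ± 0.11, adjusted p = 0.426, turning to 0.23 with chromosome medians set equal. Car9, untested, had 16.5 and 0 normalized counts in the conv-dSVA_F&D libraries, 6.81 and 12.2 in those of conv-dSVA_F, 0 and 13.1 in those of conv-dSVA_D, and 5.46 in the wild type, and a value of 0 allows up to 3 reads, or 4.18 normalized counts in conv-dSVA_F&D replicate 2 and 2.88 in conv-dSVA_D replicate 1. Ero1a, the oxidase gene of the endoplasmic reticulum listed under its newer symbol, had 1759.8 and 1582 normalized counts in the conv-dSVA_F&D libraries, 1098 and 1161 in those of conv-dSVA_F, 1143 and 1662 in those of conv-dSVA_D, and 1443 in the wild type and did not pass (0.56 ± 0.17, adjusted p = 0.106).

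**Figure D3:**
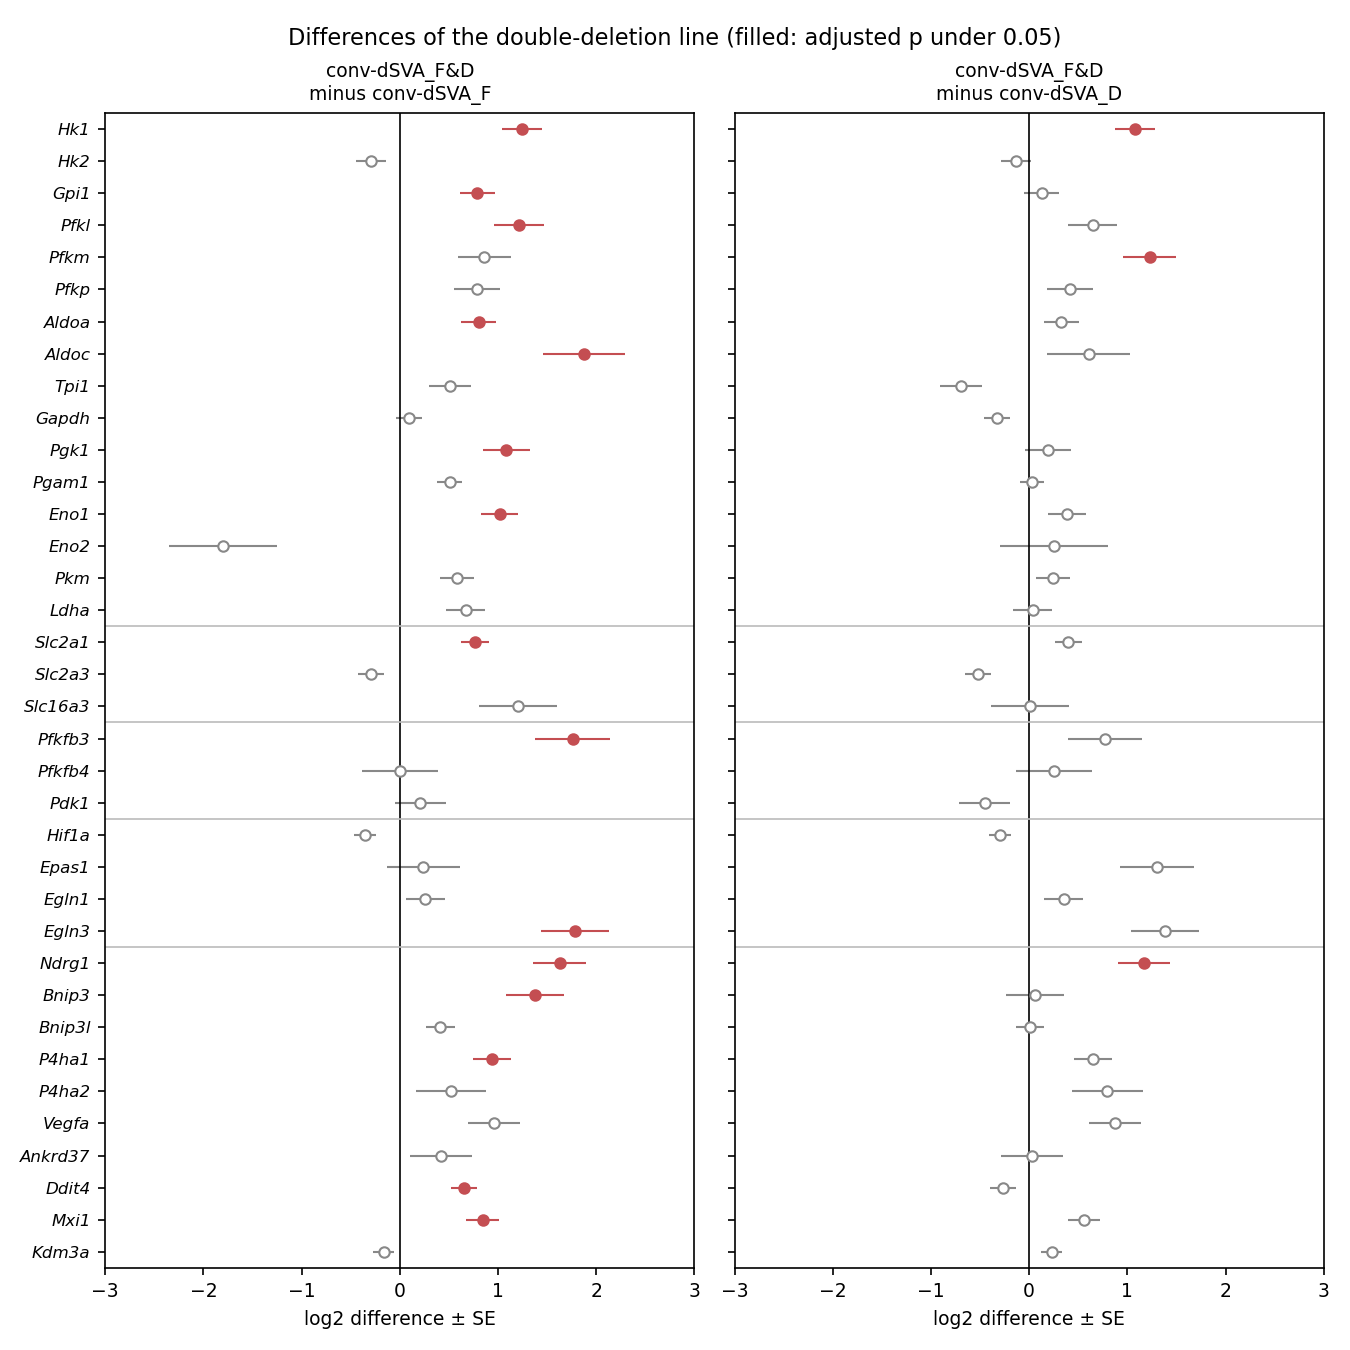
Points are log2 differences of the 36 tested members, ± SE, for conv-dSVA_F&D minus conv-dSVA_F (left) and minus conv-dSVA_D (right), with members in order of role and filled points past an adjusted p of 0.05. In the left panel 15 points are filled, all right of 0, and in the right panel 3 are.

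The spread inside the conv-dSVA_F group was wide and went one way for most members. Its replicate 1 was below replicate 2 for 31 of 37 members, against 49.4% of the 15240 genes. In conv-dSVA_D replicate 1 was also below replicate 2 for 31 of 37, against 50.6% of all genes, and in conv-dSVA_F&D for 10 of 37, against 48.8%. Conv-dSVA_F replicate 1 held the lowest of the 7 values for 21 of 36 members, against 15.0% of 15204 tested genes with a single lowest and highest library. Outside chromosomes 6 and 8 it did so for 19 of the 28 members, against 16.4% of 13222 genes. Among the 36 members, conv-dSVA_F replicate 2 held the lowest value for 2, against 9.30% of all genes. Conv-dSVA_F&D replicate 1 held the highest value for 13 members, against 14.7% of all genes, and the wild type for 8, against 18.9%.

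The 16 enzymes took 1.64% and 1.44% of the reads in the conv-dSVA_F&D libraries, 0.878% and 1.24% in those of conv-dSVA_F, 1.39% and 1.54% in conv-dSVA_D and 1.44% in the wild type. The Wilson 95% interval was 0.875 to 0.882% in conv-dSVA_F replicate 1 and 1.23 to 1.24% in its replicate 2, and intervals cover counting error only. The 21 other members took 0.346% and 0.295% in conv-dSVA_F&D, 0.316% and 0.340% in conv-dSVA_F, 0.357% and 0.410% in conv-dSVA_D and 0.279% in the wild type. Slc2a3 was their most abundant gene, and their share was lowest in the wild type rather than in conv-dSVA_F replicate 1.

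**Figure D4:**
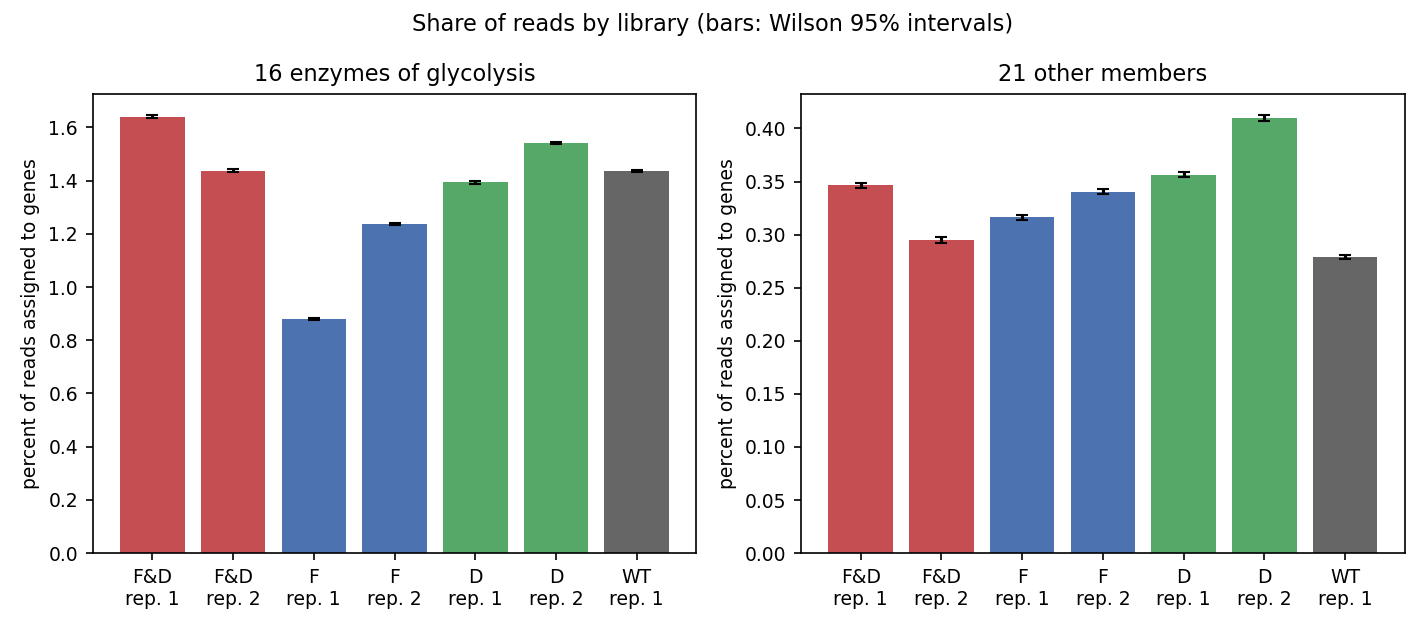
Bars give the percent of all reads assigned to genes that fell on the 16 enzymes (left) and on the 21 other members (right) in each library, with Wilson 95% intervals and axes from 0. The enzyme share is lowest in conv-dSVA_F replicate 1, at 0.878%, and between 1.24% and 1.64% in the 6 other libraries.

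Markers of other cell types also differed between these libraries. The 10 trophoblast genes summed to 1833 and 2650 normalized counts in the conv-dSVA_F&D libraries, 5504 and 2484 in those of conv-dSVA_F, 1102 and 1210 in conv-dSVA_D and 1916 in the wild type. The library with the lowest enzyme share thus had the highest trophoblast sum. That was conv-dSVA_F replicate 1 alone, since replicate 2 of its line (2484) lay below conv-dSVA_F&D replicate 2 (2650). Of the 8 trophoblast genes tested, limma called 0 for conv-dSVA_F&D minus conv-dSVA_F, beside 3.92% of all genes. An unadjusted p under 0.05 was found for 2 of the 8 and for 3159 of all 15240 genes. Differences of the 8 in this comparison were -1.66 to 0.87 (median -0.41). Over conv-dSVA_D, limma called 3 of the 8 higher in conv-dSVA_F&D (median 1.59), beside 1.96% of all genes called higher. In conv-dSVA_F it called 2 of the 8 higher over conv-dSVA_D (median 1.93), beside 1.08%. Elf5 was at 0 in both conv-dSVA_F&D libraries, and Hand1 at 0 in 3 libraries, none of them conv-dSVA_F. A value of 0 allows up to 3 reads. The sum over 12 fibroblast genes was 30505 and 25561 in conv-dSVA_F&D, 12737 and 14890 in conv-dSVA_F, 24550 and 20707 in conv-dSVA_D and 16680 in the wild type, with Lum and Twist2 at 0 in all 7. Between 3 and 6 of the 12 were at 0 in each library. Of the 7 tested, 1 rose and 1 fell in conv-dSVA_F&D over conv-dSVA_F, beside 1.71% and 2.21% of all genes. Their differences were -3.42 to 1.08 (median 0.29). For 10 primitive endoderm genes it was 17654 and 16892 in conv-dSVA_F&D, 17192 and 16062 in conv-dSVA_F, 13525 and 14407 in conv-dSVA_D and 13959 in the wild type. The part of these marker differences in the results was not tested, and in bulk samples fewer cells of a type and less RNA per cell cannot be told apart.

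Promoters of 5 of the 14 risen members with RefSeq windows are shown next, with the core letters that HIF binds, ACGTG or GCGTG. The 5 are those with 1 window that overlaps the GENCODE gene by fewer than 30 bases. Each sequence gives the 250 bases before the start of transcription (RefSeq, GRCm38.p6), 5′ to 3′ on the gene's strand, with matches to ACGTG or GCGTG on either strand in capitals. Pgk1, P4ha1, Egln3 and Bnip3 have 1 annotated window each with a match, and Gpi1 rose but has none.
Pgk1, chrX:106186850-106187099, plus strand: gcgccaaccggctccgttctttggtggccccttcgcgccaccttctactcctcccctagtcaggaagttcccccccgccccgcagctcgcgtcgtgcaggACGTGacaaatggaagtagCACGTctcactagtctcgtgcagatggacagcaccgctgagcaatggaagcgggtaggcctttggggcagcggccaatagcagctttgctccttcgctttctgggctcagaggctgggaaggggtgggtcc
P4ha1, chr10:59323046-59323295, plus strand: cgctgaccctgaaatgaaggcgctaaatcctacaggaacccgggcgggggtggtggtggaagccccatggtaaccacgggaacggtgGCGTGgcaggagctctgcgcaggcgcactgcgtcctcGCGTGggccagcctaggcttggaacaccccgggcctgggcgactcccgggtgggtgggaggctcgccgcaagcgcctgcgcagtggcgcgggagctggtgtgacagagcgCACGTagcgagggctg
Egln3, chr12:54203875-54204124, minus strand: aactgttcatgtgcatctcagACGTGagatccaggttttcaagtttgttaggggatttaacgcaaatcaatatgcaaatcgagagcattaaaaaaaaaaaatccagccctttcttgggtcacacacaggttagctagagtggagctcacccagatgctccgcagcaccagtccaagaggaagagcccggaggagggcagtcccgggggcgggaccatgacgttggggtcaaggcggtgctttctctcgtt
Bnip3, chr7:138909507-138909756, minus strand: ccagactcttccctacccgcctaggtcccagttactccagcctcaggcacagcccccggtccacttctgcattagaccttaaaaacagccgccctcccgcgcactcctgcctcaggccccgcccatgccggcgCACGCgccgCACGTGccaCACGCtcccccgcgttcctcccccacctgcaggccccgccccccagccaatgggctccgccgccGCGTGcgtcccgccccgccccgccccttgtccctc
Gpi1, chr7:34230337-34230586, minus strand: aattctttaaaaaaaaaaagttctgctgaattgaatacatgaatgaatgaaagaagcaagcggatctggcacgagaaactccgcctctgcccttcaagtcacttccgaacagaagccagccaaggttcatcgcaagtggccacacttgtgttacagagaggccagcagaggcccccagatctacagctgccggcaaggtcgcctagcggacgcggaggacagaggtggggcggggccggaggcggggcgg

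Pgk1 holds 2 matches, the first beginning at position -150 from the start, P4ha1 holds 3, the first at -163, and Egln3 holds 1, at -229. Bnip3 holds 5, of which a pair overlaps in the palindrome CACGTG, the E-box that MYC family proteins bind. RefSeq windows matched 33 of the 38 members, with 51 windows in all, some of them overlapping. At least 1 match was found for 30 of the 33 genes, against 6653 of the 10904 tested genes with windows. By window it was 39 of 51 (76.5%), against 55.2% of the windows of all genes tested and 38.6% of all windows. The list was made of glycolysis genes and HIF targets, so a higher share than over all genes is not independent of that choice. ACGTG was in 49.0% of the members' windows and 21.5% of those of genes tested, and GCGTG in 49.0% and 44.0%. Among members that rose over conv-dSVA_F 13 of 14 genes had a match, and among the other members 17 of 19, and no test was made between them. A match is not a binding site, and HIF binding was not measured.

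Set against conv-dSVA_D, which lacks the SVAdel mark, conv-dSVA_F&D had 3 of 36 members higher and none lower, against 3.16% of all genes called (1.96% higher, 1.21% lower). They were Hk1 (1.08 ± 0.21, adjusted p = 0.0274), Pfkm (1.23 ± 0.27, adjusted p = 0.043) and Ndrg1 (1.17 ± 0.27, adjusted p = 0.0495), whose values in each library stand above. For Hk1 and Ndrg1 both conv-dSVA_F&D libraries were above both conv-dSVA_D libraries and the wild type. For Pfkm conv-dSVA_D replicate 2 was the lowest library. With all 7 libraries, 14 of the 36 members and 3022 of all 15240 genes had an unadjusted p under 0.05 (limma). The median difference was 0.26 over the members, and no member passed without conv-dSVA_D replicate 1 or without its replicate 2 (limma; 9 and 13 members had an unadjusted p under 0.05, and edgeR and DESeq2 were run on all 7 libraries alone). DESeq2 called 8, among them Egln3, P4ha1 and Vegfa as higher and Slc2a3 and Tpi1 as lower, and edgeR called 2, where DESeq2 called 7.49% and edgeR 3.04% of all genes.

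Egln3 stood at 1.39 ± 0.35, adjusted p = 0.0633 and Epas1 at 1.30 ± 0.38, adjusted p = 0.0932 in this comparison, and neither passed. Slc2a1 differed by 0.40 ± 0.14, adjusted p = 0.15 and Eno1 by 0.39 ± 0.19, adjusted p = 0.296. Both comparisons use the same 2 conv-dSVA_F&D libraries, so their values for a gene are not independent.

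Between conv-dSVA_F and conv-dSVA_D 2 of 36 members fell in conv-dSVA_F and none rose, against 1.35% of all genes called (1.08% higher, 0.262% lower). Ddit4 fell (-0.92 ± 0.13, adjusted p = 0.0193), and its 2 conv-dSVA_F libraries were the lowest of the 7 while conv-dSVA_D held the 2 highest. Tpi1 (ENSMUSG00000023456.15, chromosome 6 from 124810586 to 124814296 on the minus strand) had 17267 and 16392 normalized counts in the conv-dSVA_F&D libraries, 9125 and 15308 in those of conv-dSVA_F, 24186 and 30625 in those of conv-dSVA_D, and 19068 in the wild type and fell (-1.20 ± 0.21, adjusted p = 0.031). The median difference over the members was -0.39. The number of limma calls depended on the libraries in the fit. Over the 7 fits that each left out 1 library, Ddit4 differed by -0.98 to -0.86 and Tpi1 by -1.58 to -0.83. DESeq2 called 9, of which 7 were lower, and edgeR called 2, where they called 5.08% and 1.48% of all genes.

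Tpi1 lies in a stretch of chromosome 6 that was shifted as a whole in 2 lines. Tpi1, Gapdh, Eno2 and Slc2a3 lie between 122727809 and 125166467 on chromosome 6, and Hk2 and Kdm3a lie nearer its middle. From 114282635 to its end, the median log2 difference of 163 protein-coding genes from the wild type was 0.03 and 0.05 in conv-dSVA_F&D, 0.40 and 0.38 for conv-dSVA_F, and 0.52 and 0.49 for conv-dSVA_D. Beside that shift, conv-dSVA_D differed from the wild type by 0.51 in Tpi1, 0.74 in Gapdh, 0.65 in Slc2a3 and -1.02 in Eno2. The same differences were 0.32 for Gapdh and 0.43 for Slc2a3 in conv-dSVA_F, where Tpi1 stood at -0.69 and Eno2 at 1.04. Gapdh had 35304 and 31418 normalized counts in the conv-dSVA_F&D libraries, 28398 and 34460.4 in those of conv-dSVA_F, 41756 and 41821 in those of conv-dSVA_D, and 25003 in the wild type, with the 2 conv-dSVA_D libraries highest and the wild type lowest. Setting whole-chromosome medians equal does not remove this shift in conv-dSVA_D, because the median of all of chromosome 6 was lower there than that of its end. No such value is therefore given for these genes in comparisons with conv-dSVA_D. In conv-dSVA_F the median of all of chromosome 6 (0.41 and 0.36) was close to that of its end.

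Between the mean of the converted groups and the wild type limma called none of the 36 members (8 had an unadjusted p under 0.05; edgeR called 0, and DESeq2 called 1, Gapdh, as higher), where limma called 1.15% of all genes (0.623% higher, 0.525% lower), edgeR 2.00% and DESeq2 7.63%. Of all 15240 genes, 2849 had an unadjusted p under 0.05 (limma), a share near that of the members. The median difference was -0.25 over the members and -0.01 over all genes. The lines differed among themselves in this respect, which is described without a test since the wild type is 1 library. The median difference from the wild type over the 36 members was 0.15 in conv-dSVA_F&D, -0.66 in conv-dSVA_F and -0.29 in conv-dSVA_D. Over the 16 enzymes it was 0.09, -0.66 and -0.30, and over the 10 tested other HIF targets -0.12, -0.95 and -0.48 in the same order of lines. Of the 10, 7 were below the wild type in conv-dSVA_F&D, 9 in conv-dSVA_F and 9 in conv-dSVA_D.

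By gene, log2 differences from the wild type in conv-dSVA_F&D, conv-dSVA_F and conv-dSVA_D were -0.41, -1.79 and -0.47 for Bnip3. They were -0.16, -1.12 and -1.04 for Vegfa and -0.42, -0.95 and -1.22 for P4ha2, the wild type being above 5 of the 6 converted libraries for Vegfa and above all 6 for P4ha2. For Egln3 they were 0.81, -0.98 and -0.58 and for Ndrg1 0.68, -0.95 and -0.49, so these genes lay above the wild type in conv-dSVA_F&D and below it in the single-deletion lines. Pgk1 stood at -0.11, -1.20 and -0.30 and Aldoa at 0.01, -0.79 and -0.31, close to the wild type in conv-dSVA_F&D. Pdk1 stood above the wild type in the mean of each line, at 0.59, 0.38 and 1.05. In conv-dSVA_F its replicate 1 (1444 normalized counts) was below the wild type (1499.7) and its replicate 2 (2651) above.

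Across the 3 converted groups 12 of 36 members differed (moderated F test, limma), against 5.58% of all genes. They were the enzyme genes Hk1, Pfkl, Tpi1, Pgk1 and Eno1, the transporter gene Slc2a1, the sensor gene Egln3, and Ndrg1, Bnip3, P4ha1, Ddit4 and Mxi1. Ddit4 had the smallest adjusted p (0.0156), with conv-dSVA_F lowest, conv-dSVA_F&D between and conv-dSVA_D highest. For Egln3 and Ndrg1 the order of group means was conv-dSVA_F, conv-dSVA_D, conv-dSVA_F&D. How many members passed depended strongly on the libraries in the fit. A fit that leaves 1 library in a group takes its spread from the other groups alone.

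Genes of the same pathways outside the list were counted in the same fit. Of 27 further genes of glycolysis and pyruvate use, 20 were tested, and 1 rose in conv-dSVA_F&D over conv-dSVA_F (median 0.02), a share near the 3.92% of all genes. It was Ldhb, for the lactate dehydrogenase subunit of heart, on chromosome 6, which had 1968 and 2421 normalized counts in the conv-dSVA_F&D libraries, 707 and 905 in those of conv-dSVA_F, 1593 and 1869.5 in those of conv-dSVA_D, and 1335 in the wild type (1.45 ± 0.17, adjusted p = 0.0108). Of 35 further HIF pathway genes 34 were tested, and 4 rose and 1 fell (median 0.42), beside 1.71% and 2.21% of all genes. The phosphoglucomutase gene Pgm1 had 2414 and 2208 normalized counts in the conv-dSVA_F&D libraries, 643 and 1156 in those of conv-dSVA_F, 1782 and 2625 in those of conv-dSVA_D, and 2127 in the wild type (1.42 ± 0.26, adjusted p = 0.0229). Stc2, for a secreted glycoprotein, had 428 and 593 normalized counts in the conv-dSVA_F&D libraries, 55.3 and 161 in those of conv-dSVA_F, 166 and 247 in those of conv-dSVA_D, and 534 in the wild type (2.40 ± 0.44, adjusted p = 0.023). Gys1, for glycogen synthase, had 2474 and 2353 normalized counts in the conv-dSVA_F&D libraries, 904 and 1473 in those of conv-dSVA_F, 1420.1 and 1427 in those of conv-dSVA_D, and 2158 in the wild type (1.06 ± 0.20, adjusted p = 0.0234). Pgm2, another phosphoglucomutase family gene, rose by 0.83 ± 0.19, adjusted p = 0.0441. The heme oxygenase gene Hmox1 fell (-0.65 ± 0.15, adjusted p = 0.0461). Pgm2 and Hmox1 here were chosen after their values were seen. For Ldhb, Pgm1 and Stc2 both conv-dSVA_F libraries were below the 5 others, while for Gys1 conv-dSVA_F replicate 2 was above both conv-dSVA_D libraries.

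Over conv-dSVA_D, where 3.16% of all genes were called, 1 of the 20 further glycolysis genes fell in conv-dSVA_F&D, Tigar on chromosome 6 (-0.52 ± 0.12, adjusted p = 0.0481), and 2 of the 34 further HIF pathway genes rose, the histone demethylase gene Kdm4c (0.64 ± 0.13, adjusted p = 0.0358) and the adenylate kinase gene Ak4 (1.06 ± 0.23, adjusted p = 0.0405). Between conv-dSVA_F and conv-dSVA_D, Ldhb (-1.11 ± 0.17, adjusted p = 0.0193) and Pgm1 (-1.33 ± 0.26, adjusted p = 0.0422) fell in conv-dSVA_F. Against the wild type limma called none of either list, and counts by the other tools were not made for these lists. An unadjusted p under 0.05 was found for 3 of the 20 and 8 of the 34, beside 2849 of all 15240 genes.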

How the data were processed

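The 7 libraries were prepared as stranded total RNA, per the labels' protocols. The authors deposited a table of normalized counts, a signal made by dividing each library's gene counts by 1 size factor. The build mm10 and the tools featureCounts 1.6.3, STAR 2.7.3, Trimmomatic 0.36, Picard 2.18.20, deepTools 3.1.0 and DESeq2 are listed, per the submitters' processing notes. No source states the strand setting or annotation. The step between low values gave each library's size factor, and 100% of the positive values became whole reads to within 0.1.

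Members and gene lists were chosen with earlier results of these data known. The test was limma 3.58.1 (R 4.3.3) with a variance trend on log2(normalized count + 1), which understates changes of low genes, 1 mean for each of 4 groups, a mean of at least 10, two-sided, with Benjamini-Hochberg adjustment over 15240 genes and a threshold of 0.05. Residual and prior degrees of freedom were 3 and 6.80, and the lone wild type was assumed to vary like the other groups. The script was tested on simulated data. Alternatives were edgeR 4.0.16, DESeq2 1.42.0, TMM scaling, pseudocounts of 0.5 and 5, other filters, no trend, fewer libraries, chromosome medians set equal and leaving out each library. Every member past the threshold is named with its values in each library, and of further pathway genes up to 4 with the smallest p in each comparison. Positions and exon lengths are from GENCODE M21 (GRCm38, the same assembly as mm10), which matched 93.1% of gene names. The 3 other samples of the series, 1 of stem cells before conversion and 2 of striatum, were not analysed here.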

Additional observations from a re-analysis of the deposited data

How the results depend on the processing

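Counts of members called were recomputed under each alternative, and none of the called differences changed direction (186 values kept their side of the threshold and 154 no longer passed). Among uncalled members of conv-dSVA_F&D against conv-dSVA_F, chromosome medians set equal turned Hk2, Slc2a3 and Kdm3a on chromosome 6 to 0.10, 0.10 and 0.23, and Pfkfb4 to -0.04. For conv-dSVA_F&D against conv-dSVA_F the 15 calls became 0 without the low-value filter (21 at unadjusted p under 0.05), 0 without the variance trend (19), 3 with only the libraries compared (median 0.72, 26 at unadjusted p under 0.05, 1.31% of all genes called) and 5 with chromosome medians set equal (0.76, 29 and 1.12%). Leaving out 1 library changed the count, and the share of all genes called changed too. For conv-dSVA_F&D against conv-dSVA_D DESeq2 called 8 (7.49% of all genes), and the fits without filter or trend 0 each (9 and 8 at unadjusted p under 0.05). The count changed when 1 library was left out. For conv-dSVA_F against conv-dSVA_D DESeq2 called 9 (5.08%), the fits without filter or trend 0 each (10 and 8), members not on chromosomes 6 and 8 gave 1, an alternative chosen after seeing the data, and leaving out 1 library gave 0 to 7. For the converted mean against the wild type DESeq2 called 1 (7.63%), and limma and edgeR 0 in every fit. For any difference among the converted groups DESeq2 called 22 (14.3%), the fits without filter or trend 0 each (17 and 14), and the count changed when 1 library was left out. For these alternative fits the share of all genes at an unadjusted p under 0.05 was not computed. The cause of the changes was not tested.

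With reads of protein-coding genes as the denominator, the enzyme share was 1.88% and 1.73% in conv-dSVA_F&D, 1.02% and 1.45% in conv-dSVA_F, 1.62% and 1.79% in conv-dSVA_D and 1.74% in the wild type. That of the other members was 0.398% and 0.354% in conv-dSVA_F&D, 0.367% and 0.399% in conv-dSVA_F, 0.415% and 0.476% in conv-dSVA_D and 0.337% in the wild type. The smaller denominator raises all of them by construction. Outside chromosomes 6 and 8, conv-dSVA_D replicate 1 held the lowest value for 3 of 28 members and the wild type for 1. Over all genes outside them the shares were 14.2% and 18.3%.

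No paired analysis was possible because the labels give no replicate numbers that link libraries of different lines. With 2 libraries a line and 1 wild type, small differences were not detectable, and Car9 lay near the 3-read floor.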
